A study of Homo sapiens with 7 samples.

Results

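Broad CTCF domains were taken as peaks of 1500 bp or more on chromosomes 1 to 22 and X. They were selected on their width in either of the 2 CTCF peak lists of K562 cells. There were 284 such peaks among 33069 in control cells (0.859% of the list) and 518 among 32893 in cells treated with pyridostatin (1.57%), or 802 of 65962 in all. K562 is an established human erythroleukaemia line, and pyridostatin (PDS) is a small molecule that stabilizes DNA G-quadruplexes (G4s). The experiment, chromatin immunoprecipitation with sequencing (ChIP-seq), used untreated cells (2 CTCF samples, 1 IgG sample) and cells given 10 μM PDS for 24 h (2 CTCF samples, 2 IgG samples). The question addressed by the comparison was whether CTCF sits differently on the genome once G4s are stabilized. Each list was called once, on both CTCF samples of its condition over IgG. The lists thus hold no value per replicate, the depth is unknown, and no test between the conditions can be made from them. Every value below describes the lists, and its 95% interval covers counting error only.

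CTCF is a zinc-finger protein that binds a GC-rich consensus, halts the cohesin ring on DNA and so anchors chromatin loops and domain borders. A single bound site usually gives a narrow peak, and a broad one can arise where several sites lie side by side or where signal spreads over flanking DNA. G4s are stacks of guanine tetrads that form in strands with several runs of G, and such runs are frequent near the start sites of genes.

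The sequences below show the 2 kinds of motif that were searched in the domains, in the hg19 (GRCh37) sequence and 5′ to 3′ on the strand named. A G4 motif needed 4 G runs, each of 3 or more bases, parted by 1 to 7 nt, and both strands were read. Capitals mark runs of 3 or more G. The motifs come from named domains described further on. Those in LTBP3, CCDC167 and PDS5A are intronic, and the last lies between genes. All of them lie outside UTRs.
LTBP3, chr11:65308192-65308214, plus strand: GGGGcGGGGcctacaGGGcGGGG
CCDC167, chr6:37452825-37452850, plus strand: GGGGGtGGGGGcctgatGGGGaaGGG
PDS5A, chr4:39978391-39978416, minus strand: GGGccGGGttggcGGGGccggcGGGG
chr22:22415144-22415172, plus strand: GGGcctGGGcagcaGGGGGcgctgtGGGG

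The CTCF consensus was the 15-base motif obtained by ChIP with exonuclease digestion, and it was searched on both strands. Capitals here mark the positions at which that consensus allows 1 base only. The matches are from the widest domain of both lists, from a domain of the immunoglobulin light chain region, from the domain in CCDC167 and from a control domain that the PDS list covered least. The first 2 lie between genes and the others in introns.
Widest domain, chr22:23297602-23297616, minus strand: aCAttAGagGGCagt
Immunoglobulin region, chr22:22415152-22415166, plus strand: gCAgcAGggGGCgct
CCDC167, chr6:37452141-37452155, plus strand: cCAgaAGgtGGCggc
RIOK2, chr5:96499153-96499167, minus strand: aCActAGgtGGCact
The match in the immunoglobulin region lies inside the last G4 motif of the first set, so that the same bases were counted in both searches.

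Most domains were only a little over the limit. In control cells the width had a median of 1770 bp, quartiles of 1560 and 2220 bp and a maximum of 6420 bp. In PDS-treated cells the median was 1750 bp, the quartiles 1550 and 2050 bp and the maximum 7350 bp. Control widths came in steps of 60 bp and PDS widths in steps of 50 bp, so the lists were called on different window grids, and the part of this in the difference between lists was not tested. Just inside the limit, 32 control peaks and 84 PDS peaks were 1500 bp wide. Just outside it, 38 control peaks were 1440 bp and 56 PDS peaks 1450 bp wide. The domains summed to 0.590 Mb (4.24% of the bases of all peaks) in control cells and 1.03 Mb (7.43%) in PDS-treated cells. Their median fold enrichment over IgG, as the authors computed it, was 27.6 in control cells, against 26.5 over the whole list. It was 20.8 in PDS-treated cells, against 16.7. Peaks of 1000 to under 1500 bp had higher medians than the domains, 31.7 in control cells and 21.3 in PDS-treated cells. Each condition has its own IgG, and folds are therefore set beside their own list only.

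**Figure D1:**
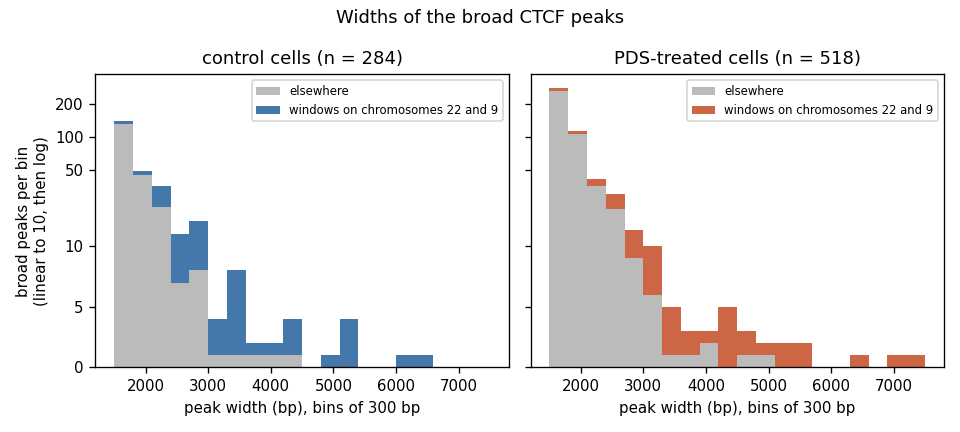
Number of broad peaks in width bins of 300 bp, for control cells (left, 284 peaks) and PDS-treated cells (right, 518 peaks), on an axis that is linear to 10 and logarithmic above. Coloured parts are peaks on chromosome 22 from 20 to 24 Mb or chromosome 9 from 132 to 136 Mb, which hold 22 of 27 control peaks and 26 of 38 PDS peaks of 3000 bp or more.

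The widest domains crowded into a stretch of chromosome 22. Between 20 and 24 Mb, 53 of 390 control peaks (13.6%, Wilson 95% interval 10.5 to 17.3%) and 55 of 437 PDS peaks (12.6%, 9.80 to 16.0%) were broad. On chromosome 9 from 132 to 136 Mb, 12 of 139 control peaks (8.63%) and 11 of 167 PDS peaks (6.59%) were broad. Everywhere else the share was 0.673% (219 of 32540) in control cells and 1.40% (452 of 32289) in PDS-treated cells. These windows were chosen after the tally over the genome was seen. They held all 6 control peaks and 7 of 8 PDS peaks of 5000 bp or more.

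The windows contain BCR and ABL1, the partners of the fusion gene for which K562 is known. BCR spans chr22:23521891-23660224 and codes for a signalling protein with a kinase domain, and ABL1 spans chr9:133588430-133763062 and codes for a tyrosine kinase. K562 is known to carry extra copies of the fusion and of DNA beside it. Copy number was not measured here, and its part in the widths was not tested. On chromosome 22 the domains lay almost wholly before or at BCR. Before 20 Mb, 7 of 123 control peaks (5.69%) and 5 of 125 PDS peaks (4%) were broad, and these were counted outside the window. From 20 Mb to the start of BCR, 52 of 367 control peaks and 53 of 411 PDS peaks were broad. In BCR, 1 of 16 and 2 of 19 were. From its end to 24 Mb none of 7 was in either list, and after 24 Mb 0 of 480 and 3 of 493 were. On chromosome 9 the order was the opposite one. Before ABL1, 4 of 1013 control peaks (0.395%) and 10 of 975 PDS peaks (1.03%) were broad, in ABL1 2 of 15 and 2 of 16 were, and from its end to 136 Mb 9 of 83 (10.8%) and 7 of 108 (6.48%) were. The median fold of the domains in both windows together was 18.4 in control cells and 16.6 in PDS-treated cells, against 30.2 and 21.1 for the domains elsewhere.

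**Figure D2:**
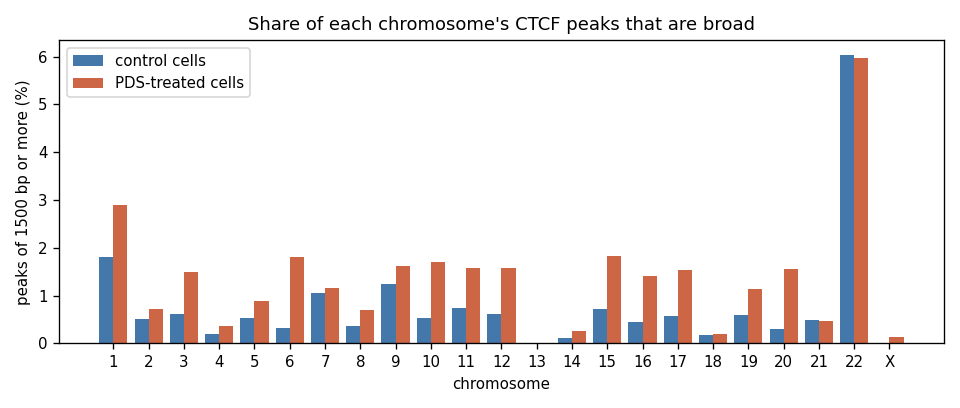
Share of the CTCF peaks of each chromosome that are 1500 bp or wider, in percent, for control cells and PDS-treated cells. Chromosome 22 stands at 6.04% and 5.97%, and the next highest, chromosome 1, at 1.81% and 2.89%.

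Outside chromosome 22, chromosome 1 had the highest share of broad peaks, with 70 of 3866 in control cells (1.81%) and 119 of 4119 in PDS-treated cells (2.89%). Chromosome 13 had none in either list among 484 and 427 peaks. Chromosome X had 0 of 756 and 1 of 696. Chromosome 6 had 6 of 1904 in control cells and 32 of 1759 in PDS-treated cells. On chromosome 22 as a whole the counts were 60 of 993 and 63 of 1055.

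The widest domain was the same in both lists. It lay between genes at chr22:23295901-23302320 in control cells (6420 bp) and reached to 23303250 in PDS-treated cells (7350 bp). It held no G4 motif and 1 consensus match, the first one printed above. The second widest control domain, at chr9:133737181-133743240, lay within ABL1 and was 6060 bp wide. In PDS-treated cells it was covered by 2 peaks, of which the wider measured 4750 bp.

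The second widest PDS domain lay within MED15, a subunit of the Mediator complex that links transcription factors to RNA polymerase II. It was 6950 bp wide, at chr22:20917551-20924500. In control cells 4 peaks with a summed width of 3780 bp overlapped it, and they covered 49.4% of it. The third, at chr22:23030051-23036600, was 6550 bp wide, and 6 control peaks with a summed width of 3180 bp lay on it. In both cases a single PDS peak overlapped a row of separate control peaks. In MED15 the first of these began before the PDS peak, at 20917201.

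Domains over gene segments of the immunoglobulin lambda light chain were among the widest as well. The domain over the variable segment IGLV9-49 was 5100 bp wide in control cells and 5250 bp in PDS-treated cells. The domain over IGLV6-57 and IGLVI-56 was 5650 bp wide in PDS-treated cells. On it lay 2 control peaks, the wider of 3540 bp, which covered 85.0% of it. The domain over IGLV3-32 was 5250 bp wide in PDS-treated cells. On it lay 3 control peaks, the widest of 2700 bp, which covered 74.3% of it. The domain over IGLVV-66 and IGLVIV-66-1 was 4920 bp wide in control cells. In PDS-treated cells it was split into 2 broad peaks of 1850 and 2100 bp, which covered 76.0% of it. Only 1 of the 8 widest PDS domains, and none of the 8 widest control domains, lay outside the windows on chromosomes 22 and 9. It was 5050 bp wide, at chr1:203307551-203312600 in FMOD, which codes for the matrix protein fibromodulin. In control cells 3 peaks lay on it, the widest of 2760 bp.

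No broad peak of either list lacked a counterpart. All 284 control domains and all 518 PDS domains overlapped a peak of the other list by at least 1 bp, against 78% of all control peaks and 78.6% of all PDS peaks. Among peaks of 1000 to under 1500 bp the shares were already 98.9% and 99.9%. A wide peak has more bases with which to meet another, and the part of width in this share was not tested. The counterpart was itself 1500 bp or wider for 178 of 284 control domains (62.7%, Wilson 95% interval 56.9 to 68.1%) and for 178 of 518 PDS domains (34.4%, 30.4 to 38.6%). Over all peaks of the lists, 2.17% and 1.16% had so wide a counterpart.

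The widest counterpart of a control domain had a median width of 1700 bp, and that of a PDS domain 1200 bp. The ratio of counterpart to own width had a median of 0.962 (95% interval 0.895 to 0.995) for control domains and 0.683 (0.640 to 0.727) for PDS domains. Peaks with a counterpart in the bands just below showed the same order, with 0.965 and 0.756 at 1000 to under 1500 bp and 1.0 and 0.84 at 500 to under 1000 bp, whereas under 500 bp the medians were 1.04 and 1.2. Peaks chosen for being wide in one list may be narrower in the other for that reason, in both directions, and this was not tested. The counterpart was narrower for 161 control domains, wider for 120 and equal for 3. For PDS domains these counts were 458, 57 and 3. Outside the windows on chromosomes 22 and 9 the median ratio was 0.938 for control domains and 0.655 for PDS domains, and inside them 1.05 and 0.900.

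The counterpart was under 500 bp wide for 5 control and 4 PDS domains, from 500 to under 1000 bp for 37 and 173, and from 1000 to under 1500 bp for 64 and 163. Some domains were divided into pieces in the other list. Of the control domains 85 (29.9%) met 2 or more PDS peaks, and of the PDS domains 168 (32.4%) met 2 or more control peaks, with up to 4 and 6 pieces. Among peaks of 1000 to under 1500 bp these shares were 13.4% and 7.67%, and at 500 to under 1000 bp 2.39% and 0.731%. The part of width in them was not tested. When peaks within 200 bp were merged, the control list still had 284 domains, whereas the PDS list went from 518 to 635. Close neighbours thus stood as separate peaks in the PDS list, and the split counts of the lists are not directly comparable. Joined by position, the domains formed 622 loci, of which 176 were broad in both lists, 106 in control cells only and 340 in PDS-treated cells only.

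**Figure D3:**
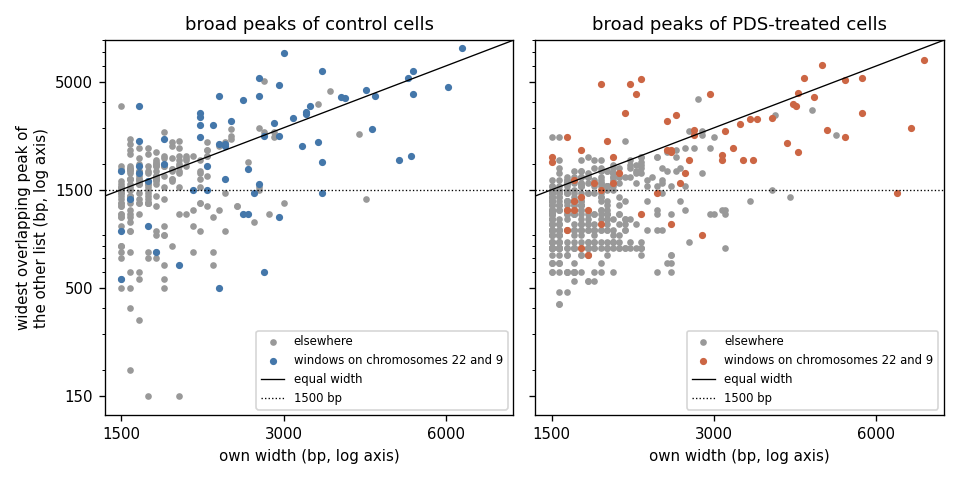
Width of the widest overlapping peak of the other list (vertical, bp, log axis) against the domain's own width (horizontal, bp, log axis), for 284 control domains (left) and 518 PDS domains (right). The solid line marks equal width, the dotted line 1500 bp, and coloured points lie in the windows on chromosomes 22 and 9. The median ratio is 0.962 on the left and 0.683 on the right.

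The domains that the other list covered least were poor in GC in control cells. The 4 control domains with the least cover had GC contents of 32.8 to 37.3% and no G4 motif. The first, at chr5:96497641-96499560 in the kinase gene RIOK2, was 1920 bp wide, and a single PDS peak of 150 bp covered 7.81% of it. Another, at chr2:188445181-188446740, was 1560 bp wide with 2 consensus matches, and a PDS peak of 200 bp covered 12.8%. The 4 PDS domains with the least cover had GC contents of 47.2 to 61.2%, and 3 of them held G4 motifs. The first, at chr21:47389601-47391950, was 2350 bp wide with 2 motifs, and a control peak of 600 bp covered 25.5%. The next lay in SP6, a zinc-finger transcription factor gene, and was 1550 bp wide with 27.1% covered. The domain over the start of the receptor gene GPR142 was 1800 bp wide, and 33.3% of it was covered.

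Domains covered gene starts more often than the lists did as a whole. The start of at least 1 annotated gene lay in 59 of 284 control domains (20.8%, Wilson 95% interval 16.5 to 25.9%), against 7.35% of all control peaks. In PDS-treated cells it lay in 90 of 518 domains (17.4%, 14.4 to 20.9%), against 6.85% of all peaks. The share climbed with width over all 4 width bands in both lists, from 6.0% to 9.22%, 17.3% and 20.8% in control cells and from 4.74% to 10.3%, 11.9% and 17.4% in PDS-treated cells. A longer interval meets more starts for its length alone. At a fixed length, the central 200 bp, a gene start lay in 1.76% of control domains (0.754 to 4.05%) and 2.32% of PDS domains (1.33 to 4.01%), against 4.26% (4.05 to 4.49%) and 3.76% (3.56 to 3.97%) of the peaks under 1500 bp. The higher share of the domains was thus not seen when length was held equal. The shares there were lower than in narrower peaks, but they rest on 5 and 12 domains, and the intervals overlapped in both lists. For coding starts alone the intervals were separate, at 0.704% (0.193 to 2.53%, 2 domains) against 2.92% (2.74 to 3.11%) in control cells. In PDS-treated cells the shares were 0.772% (0.301 to 1.97%, 4 domains) against 2.43% (2.27 to 2.60%). Gene starts per kb of whole width were 0.115 (0.0895 to 0.146) against 0.201 (0.193 to 0.208) in control cells. In PDS-treated cells this density was 0.0970 (0.0789 to 0.118) against 0.188 (0.181 to 0.196). Outside the windows the share of domains with a start was 16.9% and 14.8%, and inside them 33.8% and 34.8%.

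**Figure D4:**
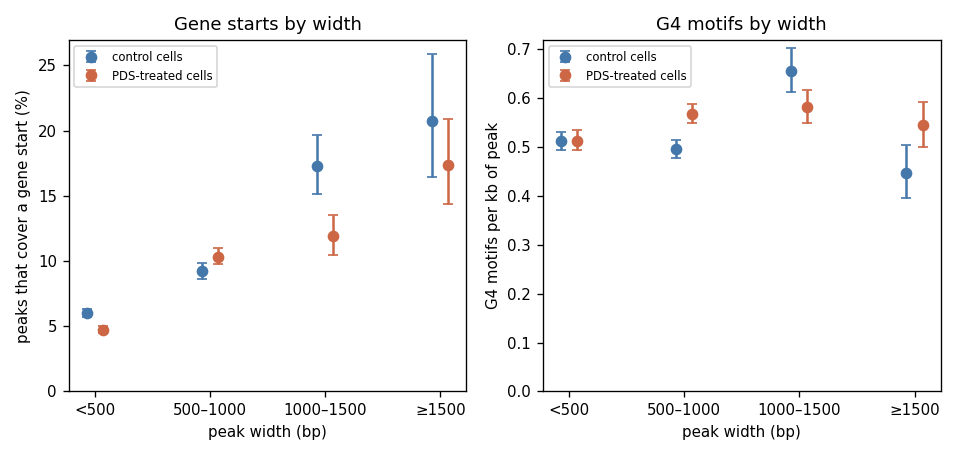
Share of peaks that cover a gene start (left, percent, Wilson 95% intervals) and G4 motifs per kb of peak (right, exact Poisson 95% intervals) in 4 width bands, for control cells and PDS-treated cells. The share with a start is highest in the widest band (20.8% and 17.4%), whereas the motif density there (0.447 and 0.545 per kb) is below that of peaks of 1000 to under 1500 bp (0.656 and 0.582 per kb).

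The domains were sorted by their position relative to genes. In control cells 30 domains covered the start of a coding gene, 29 the start of another gene, 151 lay inside a gene and 74 between genes. In PDS-treated cells these counts were 42, 48, 282 and 146. By bases, the domains lay between genes more than their lists did, with 41.7% against 34.4% in control cells and 41.1% against 35.6% in PDS-treated cells. Introns took 39.5% of their bases against 49.4%, and 40.2% against 47.7%. Outside the windows the domains had 36.4% and 38.3% of their bases between genes, and inside them 53.2% and 52.7%, so most of the control difference lay in the windows.

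The domains covered the starts of 68 genes in control cells (0.107% of 63827) and 100 in PDS-treated cells (0.157%). Among them were 32 coding genes (0.159% of 20098), 9 immunoglobulin or T cell receptor segments (1.43% of 629), 16 long noncoding RNA genes (0.0861% of 18592) and 9 pseudogenes (0.0610% of 14760) in control cells. In PDS-treated cells there were 44 coding genes (0.219%), 12 immunoglobulin or T cell receptor segments (1.91%), 31 long noncoding RNA genes (0.167%) and 10 pseudogenes (0.0678%). All of the segments covered in either list were of the immunoglobulin lambda light chain and lay inside the window on chromosome 22. A total of 42 genes, 17 of them coding, had their start in a domain of both lists.

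Several of the 17 coding genes covered in both lists are given here as examples. The domain over the start of FOXD2, a forkhead transcription factor, was 1980 bp in control cells and 2200 bp in PDS-treated cells, with 3 G4 motifs in each. That over the start of BCR measured 4260 bp with 5 motifs and 4600 bp with 3. The start of FRS3, an adaptor of growth factor receptors, and that of TOMM6, a subunit of the mitochondrial import pore, shared a domain of 1560 bp in control cells and 1900 bp in PDS-treated cells.

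The domain over ABCA2, a lipid transporter, was 1740 bp and 2000 bp wide. That over ZDHHC8, a palmitoyltransferase, measured 2340 bp and 2450 bp, with no G4 motif. That over AP5B1, a subunit of an adaptor complex for vesicle transport, measured 1980 bp and 1950 bp with 4 motifs. Over DNAJC22, a co-chaperone, it was 1680 bp and 1850 bp with 3 motifs. These genes were picked among the 17 after their values were seen.

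Where a domain was broad in PDS-treated cells only, a control peak was usually present over the same start. The start of WNT1, a secreted signalling ligand, lay in a control peak of 660 bp and a PDS domain of 1500 bp. That of RAC2, a small GTPase of blood cells, lay in peaks of 600 bp and 1850 bp. That of MYLIP, a ubiquitin ligase, lay in peaks of 1260 bp and 1650 bp, each with 4 G4 motifs. That of KDM3B, a histone demethylase, lay in peaks of 1380 bp and 1500 bp, each with 4 motifs. The starts of DSCAML1, VPS18 and GPR142 lay in PDS domains of 2150, 3150 and 1800 bp and in no control peak. In the other direction, the start of BBS9 and that of RP9 shared a control domain of 2460 bp and a PDS peak of 1250 bp. Those of SDF2L1, DYRK3 and FAM78A lay in control domains of 3540, 2040 and 2760 bp and in no PDS peak. These genes were picked as examples after their values were seen.

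Of 14 gene lists examined, 2 had a member whose start lay in a domain. Among 14 genes of CTCF and the cohesin complex, only PDS5A, which codes for a regulator of cohesin release, was covered. Its domain was 1980 bp wide in control cells (chr4:39977941-39979920) and 2100 bp in PDS-treated cells (chr4:39977951-39980050). Each held 2 G4 motifs, of which 1 is printed above. Among 84 cytosolic ribosomal protein genes, only RPL38 was covered, by a peak of 960 bp in control cells and a domain of 1550 bp in PDS-treated cells. No start of the 39 HOX genes, the 68 replication-dependent histone genes, the 16 immediate early genes, the 16 chaperone genes, the 20 erythroid and blood stem cell factors or the 12 G4 helicase genes lay in a domain. The same was found for the lists of 14 cytoskeletal, 16 translation factor, 10 HMG protein, 14 RNA polymerase II and pausing, 18 spliceosomal small nuclear RNA and 13 abundant nuclear noncoding RNA genes, of which 11 of the last could be matched. Over the genome, 0.159% and 0.219% of coding starts lay in a domain.

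Domains whose only annotated gene start was that of a coding gene were spread to both sides of it. They reached a median of 964 bp upstream and 769.5 bp downstream in 22 control domains, and 1101.5 bp and 827 bp in 34 PDS domains. More of the domain lay downstream in 9 of the 22 and in 16 of the 34. Both starts of a pair of coding genes on opposite strands that run apart were covered in 2 control domains and 1 PDS domain.

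Over their whole width, the domains held no more G4 motifs per kb than narrower peaks of their lists. In control cells 264 motifs gave 0.447 per kb (exact Poisson 95% interval 0.395 to 0.505), against 0.518 per kb in peaks under 1500 bp. In PDS-treated cells 562 motifs gave 0.545 per kb (0.501 to 0.592), against 0.550. The genome held 0.134 per kb. In the central 200 bp PDS domains had 0.724 motifs per kb (0.569 to 0.907), against 0.510 (0.493 to 0.528) in narrower PDS peaks, and control domains 0.352 (0.215 to 0.544), against 0.499 (0.482 to 0.516). The control value rests on 20 motifs, and its interval holds that of narrower peaks. Peaks of 1000 to under 1500 bp had 0.656 per kb in control cells and 0.582 in PDS-treated cells. Outside the windows on chromosomes 22 and 9 the densities of the domains were 0.503 and 0.587 per kb, and inside them 0.326 and 0.370.

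At least 1 motif lay in 132 control domains (46.5%) and 288 PDS domains (55.6%), against 15.4% and 16.5% of all peaks, and a longer peak has more room for one. At 1000 to under 1500 bp the shares were already 42.3% and 41.5%. No motif was found in 152 domains of control cells (53.5%) and 230 of PDS-treated cells (44.4%). Of the others, 6 control and 12 PDS domains had 5 or more, and the largest numbers were 7 and 11.

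Among the domains with the most motifs per kb, that in LTBP3, which codes for a protein that binds latent TGF-β, had 6 motifs in 1700 bp of PDS-treated cells and a control peak of 1320 bp. That in CCDC167 had 5 motifs in both lists and was 1620 bp wide in control cells and 1600 bp in PDS-treated cells. That in RASGRP2, an exchange factor for small GTPases, had 4 motifs in 1500 bp of control cells and a counterpart of 1550 bp. The PDS domain at chr17:39821901-39823850 had 6 motifs, and its widest control peak measured 900 bp. The control domain at chr11:57225961-57227460 had 4 motifs in 1500 bp and a counterpart of 1300 bp, and it lay between genes.

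Motif density followed GC content. In domains of under 50% GC it was 0.143 per kb in control cells and 0.155 in PDS-treated cells. In those of 50 to under 60% it was 0.553 and 0.570, and in those of 60% or more 1.40 and 1.51. Narrower peaks of the same classes had 0.0827 and 0.110, 0.419 and 0.410, and 1.60 and 1.5 per kb. Below 60% GC the domains thus had the higher density in both lists, although over all classes they did not, and in PDS-treated cells the intervals overlapped under 50% GC (0.114 to 0.207 and 0.100 to 0.120). Within the class under 50% GC content still differed, at 44.7% in control domains against 42.7% in narrower control peaks. In PDS-treated cells it was 47.4% against 45.9%. At 50 to under 60% the values were 54.7% against 54.5% and 54.3% against 54.4%. These classes were added after the data were seen. GC content was 50.9% over control domains and 53.3% over PDS domains, against 51.7% and 54.1% in narrower peaks. Domains over a coding start had 0.874 motifs per kb in control cells and 0.986 in PDS-treated cells, the highest of the 4 positions. Those between genes had the lowest, 0.290 and 0.373.

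The PDS domains whose counterpart was narrower had 0.615 motifs per kb (0.554 to 0.681), against 0.445 (0.384 to 0.513) in those broad in both lists. Outside the windows alone the values were 0.613 (0.550 to 0.680) and 0.530 (0.445 to 0.627), with intervals that overlapped. Within GC classes outside the windows they were 0.158 and 0.129 per kb under 50% GC, 0.588 and 0.541 at 50 to under 60%, and 1.55 and 1.44 at 60% or more, with intervals that overlapped in each class. In control cells the domains with a narrower counterpart had 0.440 per kb, against 0.451 in those broad in both lists.

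Consensus matches were found in 110 control domains (38.7%) and 205 PDS domains (39.6%), against 17.2% and 14.2% of narrower peaks. Of the narrower peaks, those of 1000 to under 1500 bp already had shares of 30.9% and 29.7%. Per kb the order was the opposite one, with 0.213 and 0.225 matches in domains and 0.431 and 0.367 in narrower peaks. Domains with 2 or more matches made up 5.28% and 4.63%, and no domain had more than 3. Both a match and a G4 motif were present in 53 control and 112 PDS domains, and neither in 95 and 137. The domains of the chromosome 9 window had no match in either list.

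The bases of each domain were then divided into those covered by a peak of the other list and those beyond it. In control domains 84.4% of bases were covered, and in PDS domains 73.3%. Consensus matches lay almost wholly in the covered bases. In PDS domains there were 230 matches there (0.304 per kb, exact Poisson 95% interval 0.266 to 0.346) and 2 in the 275 kb beyond (0.00726 per kb, 0.000880 to 0.0262), where the whole genome had 0.00833 per kb. In control domains there were 120 (0.241 per kb) and 6 (0.0650 per kb, 0.0239 to 0.142).

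G4 motifs fell off less. In PDS domains the density was 0.571 per kb (0.519 to 0.628) in covered bases and 0.472 (0.394 to 0.561) beyond, with GC contents of 53.6 and 52.4%. In control domains it was 0.478 per kb (0.419 to 0.543) and 0.282 (0.184 to 0.413), with GC contents of 52.3 and 43.0%. The intervals of the densities beyond overlapped. Outside the windows these densities were 0.50 (0.414 to 0.598) and 0.246 (0.140 to 0.399) per kb, with intervals that did not. The stretches seen only in PDS-treated cells thus had the higher GC content, whereas the higher motif density was separate from counting error only outside the windows. GC content differed along with the density, and its part was not tested. Over narrower peaks GC content was also higher in PDS-treated cells (54.1%) than in control cells (51.7%), by less than in these stretches.

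**Figure D5:**
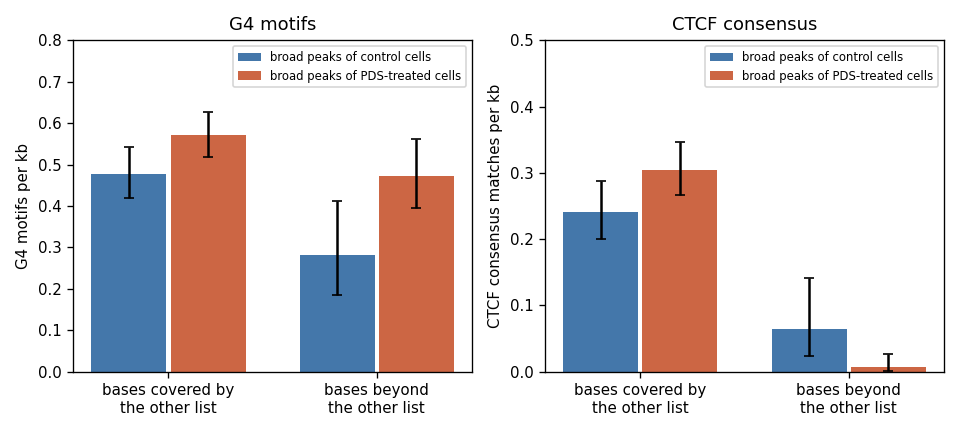
G4 motifs per kb (left) and CTCF consensus matches per kb (right) in the bases of broad peaks that the other list covers and in those beyond it. Bars are densities and whiskers exact Poisson 95% intervals. Beyond the other list, PDS domains had 0.472 motifs and 0.00726 matches per kb, and control domains 0.282 and 0.0650.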

How the data were processed

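The samples, all of K562 cells, were grouped by their labels into CTCF and IgG samples with and without PDS. Per the labels and the methods, the authors aligned reads to hg19 (Bowtie2 2.2.3, in the submitters' processing notes) and called peaks with PePr on both replicates of a condition. The deposited score was not used. The deposited fold enrichment (a ratio over IgG) and p-value of each peak were used as given, whereas 2 columns of adjusted p-values, 1 in each list, were not used. Depth is unknown. Widths, overlaps and motifs were computed with Python 3.11.15, numpy 2.4.6, pandas 2.3.3, scipy 1.17.1 and pyfaidx 0.9.0.4. Gene starts were the 5′ ends of GENCODE v44lift37 genes. Motif search, overlap and merging were tested on simulated data. No test was run, since each condition has 1 list. The peaks named were taken from the 8 widest, the 4 with most motifs per kb and the 4 least covered of each list, beside list genes covered in both lists. Not all of these peaks are described. RPL38 and the further genes given as examples fall outside this rule and were chosen after their values were seen. Of the peaks with most motifs per kb, 1 in each list is not reported here. Members, gene lists and rules were chosen with earlier results of these data known.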

Additional observations from a re-analysis of the deposited data

Results flagged for a closer look

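Peaks outside chromosomes 1 to 22 and X were not part of the comparisons. Among them, 2 peaks of 1500 bp or more were present in the PDS list, both on the unplaced sequence gl000220, the wider of 1800 bp. The control list had 1 such peak, of 1680 bp, on the same sequence.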

How the results depend on the processing

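There were 74 alternatives to 12 values. Of these, 38 stayed within the interval of the value reported, or for counts within 1.5 times it, and 36 moved. Several outcomes were fixed or nearly fixed by construction, so the tally does not measure how stable the values are. Cutting each list by p-value to 50% of its peaks retained 283 of 284 control and 517 of 518 PDS domains. Every domain already overlapped a peak, so a search within 1 kb could not change that share. Bases covered by motifs per kb were set against an interval for motifs per kb, a different unit. The number of domains in the control and PDS lists was 698 and 1177 with a threshold of 1200 bp, 142 and 238 with 1800 bp, and 27 and 38 with 3000 bp. The share of domains with a gene start was 32.0% and 25.3% with starts within 1 kb, 10.6% and 8.11% with coding genes only, 1.76% and 2.32% in the central 200 bp, 26.8% and 21.8% with a threshold of 1800 bp, and 30.3% and 27.8% with the starts of all transcripts. The motif density was 0.973 and 1.14 per kb with loops of up to 12 nt, 7.09 and 8.22 per kb with runs of 2 or more G, and 0.352 and 0.724 per kb in the central 200 bp, and motifs covered 10.7 and 13.1 bases per kb. With a threshold of 1200 bp it was 0.561 per kb in control cells. Where an overlap of 50% of both peaks was required, 79.6% of control domains and 73.7% of PDS domains had a counterpart. The counterpart was also broad for 68.3% and 30.4% after merging both lists within 200 bp, for 72.9% and 41.9% by the summed width of all overlapping peaks, for 78.2% and 52.9% at 1200 bp or more, and for 27.9% of PDS domains without the windows on chromosomes 22 and 9. The median width ratio of PDS domains was 0.760 by summed width and 0.629 after merging. These windows and the transcript starts were alternatives chosen after seeing the data. No paired analysis was possible because the files hold 1 peak list per condition, called on both replicates together, and for the same reason no replicate could be left out.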
